A study of Mus musculus with 12 samples.

Results

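The 10 genes described here encode amino acid transporters of the kidney's proximal tubule or their close relatives: Slc6a15, Slc6a18, Slc6a19, Slc6a20b, Slc7a9, Slc3a1, Slc7a13, Slc7a7, Slc7a8 and Slc1a1. They were taken by name from the 47719 genes of the deposited FPKM table, in which FPKM is the number of fragments on a gene scaled by its length and by the size of the library. Slc6a15 was chosen by its FPKM in these same libraries, which differed between ethanol-fed and pair-fed kidneys. The other 9 were listed by name, with earlier results of these data known. All 10 passed the filter on low values, among 14109 genes tested. RNA of kidney cortex was sequenced from male C57BL6/J mice, labelled as 8 weeks old, with 3 libraries in each of 4 groups. EtOH_LPS mice drank a Lieber-DeCarli liquid diet containing ethanol for 6 weeks, with 6% ethanol at the end, and 4 hours before sacrifice were injected intraperitoneally with 10 mg/kg lipopolysaccharide (LPS, a component of Gram-negative bacteria sensed by TLR4). PF_LPS mice had the same LPS after isocaloric pair-feeding in which maltose-dextrin replaced ethanol. EtOH and PF mice had the ethanol and the pair-fed diet with a saline injection. All groups thus had a liquid diet and an injection. One label field names whole kidney as the source and another names cortex as the region. Replicates are numbered, with no statement that each is a separate mouse, so p-values reflect the spread among libraries.

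The proximal tubule takes back nearly all amino acids that the glomerulus filters. Sodium-coupled carriers and exchangers in the brush border bring them into the cell, and other exchangers in the basolateral membrane release them towards the blood. Several of these carriers pair a heavy subunit, which brings the complex to the membrane, with a light subunit, which forms the transport path, and loss of either can cause an inherited aminoaciduria.

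Of the SLC6 genes, Slc6a19 encodes B0AT1, the main neutral amino acid carrier of the brush border, and Slc6a18 encodes B0AT3, a related carrier for glycine and other neutral amino acids. Slc6a20b is related to the imino acid carriers, and whether its own product carries proline was not tested here. Slc6a15 encodes B0AT2, a carrier of branched-chain amino acids and proline that is known mainly from brain. Slc6a15 lies at chr10:103367783-103419377 on the plus strand (GRCm38, the assembly also called mm10). Slc6a18 and Slc6a19 are neighbours on the minus strand at chr13:73661752-73678023 and chr13:73679745-73704865. Over the aligned coding sequences, Slc6a15 was identical to Slc6a18 at 60.2% of bases, to Slc6a19 at 60.0% and to Slc6a20b at 60.6%. The windows of 60 coding bases in which Slc6a15 came closest to Slc6a19 (46 identical bases) and to Slc6a20b (47 identical bases) show how far the paralogs differ even where they are most alike. Capitals mark the differing bases, and positions count from the start codon of the transcript annotated in GENCODE.
Slc6a15 coding bases 218 to 277: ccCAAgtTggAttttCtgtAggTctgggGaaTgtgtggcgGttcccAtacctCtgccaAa
Slc6a19 coding bases 131 to 190: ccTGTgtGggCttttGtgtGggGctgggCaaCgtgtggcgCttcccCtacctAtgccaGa
Slc6a15 coding bases 231 to 290: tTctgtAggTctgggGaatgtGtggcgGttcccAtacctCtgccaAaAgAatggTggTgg
Slc6a20b coding bases 192 to 251: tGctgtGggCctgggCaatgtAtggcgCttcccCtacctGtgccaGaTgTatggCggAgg
No stretch of 50 coding bases of Slc6a15 occurred in Slc6a16, Slc6a17, Slc6a18, Slc6a19, Slc6a20a or Slc6a20b. Slc6a20b and its sister gene Slc6a20a were 91.5% identical, with an unbroken shared run of 321 bases. They had 34.0% of the 50-base stretches of Slc6a20b in common, so the authors' counting could split or share fragments between these 2 genes, and both genes' values are uncertain.

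Slc6a19 and Slc7a8 were the members that fell with LPS, and the bases before their RefSeq transcript starts are shown for that reason (minus strand, GRCm38.p6). Those of Slc6a19 are chr13:73692637-73692886, next to the start of a shorter annotated transcript. Those of Slc7a8 are chr14:54781947-54782136, with the 60 bases nearest the start left out because they lie in an annotated exon.
Slc6a19: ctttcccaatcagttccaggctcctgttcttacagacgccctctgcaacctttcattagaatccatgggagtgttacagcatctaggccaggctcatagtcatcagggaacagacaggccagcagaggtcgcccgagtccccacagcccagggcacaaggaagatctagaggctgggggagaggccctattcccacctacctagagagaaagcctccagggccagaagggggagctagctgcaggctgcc
Slc7a8: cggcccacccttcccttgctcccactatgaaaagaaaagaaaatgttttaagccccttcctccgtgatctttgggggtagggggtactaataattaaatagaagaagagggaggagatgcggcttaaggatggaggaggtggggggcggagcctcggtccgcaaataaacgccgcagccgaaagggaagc
In the 250 bases before the start, neither gene held the core of an HNF1 site (GTTAAT), an HNF4 site (CAAAGTCCA), an NF-kB site or a C/EBP-ATF element (TGATGNAA) on either strand, so nothing is in capitals. The HNF1 letters occurred in 6.43% of 32851 RefSeq promoter windows of that length, the HNF4 letters in 0.384%, the NF-kB letters in 0.356% and the C/EBP-ATF letters in 3.45%. RefSeq windows were matched for 7 of the 10 members. Slc3a1 held the HNF4 letters from base -39, and Slc7a7 held the HNF1 and C/EBP-ATF letters before some of its starts.

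Proximal tubule RNA was abundant in every library. The 18 marker genes of the tubule, such as the endocytic receptor Lrp2 and the phosphate carrier Slc34a1, summed to 10600 to 12600 FPKM in EtOH_LPS, 7990 to 8770 in PF_LPS, 9510 to 10100 in EtOH and 7720 to 10300 in PF. Relative depth lay between 0.491 and 1.199, with PF library 1 as the unit. PF_LPS library 2 was the most extreme, with the lowest estimated depth (0.491) and the lowest mean correlation with its own group (0.9189). Relative to its group mean, its values also declined most steeply with GC content (-0.412 on the log2 scale per 10 percentage points). EtOH_LPS library 1 (-0.308) and PF library 1 (-0.248) came next. Values without PF_LPS library 2 are given too where leaving it out changed a call or a direction. The same holds where it moved a member's averaged LPS difference by more than 1.5 times.

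FPKM is scaled by transcript length, so the levels of the members can be set side by side. In PF kidneys, Slc7a13 was highest at 529 ± 99.4 FPKM (mean ± SD, n = 3), followed by Slc3a1 at 240 ± 22.9 and Slc6a19 at 147 ± 45.7. Each of these 3 stood above the next gene in every PF library. Slc6a18 (76.7 ± 7.26 FPKM), Slc7a7 (71.8 ± 12.1), Slc1a1 (65.3 ± 7.88), Slc6a20b (60.6 ± 2.6) and Slc7a9 (51.5 ± 10.2) came next, and neighbours in this order overlapped. Slc7a8 at 16.1 ± 4.7 FPKM and Slc6a15 at 14.7 ± 1.17 FPKM were lowest and overlapped with each other. The 10 members summed to 1170 to 1200 FPKM in EtOH_LPS, 1070 to 1250 in PF_LPS, 1100 to 1280 in EtOH and 1200 to 1370 in PF. These sums overlapped between the diets in each LPS state.

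**Figure D1:**
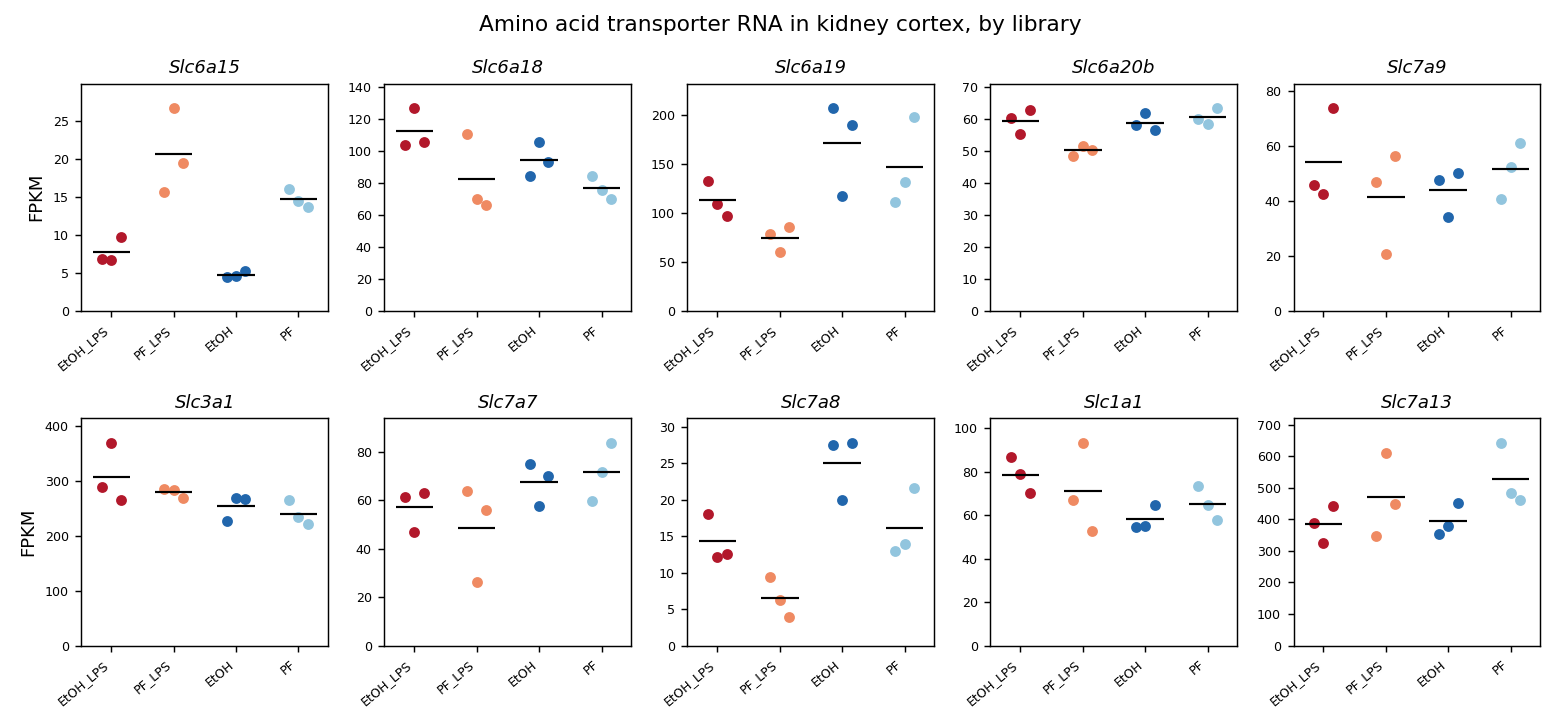
FPKM of each of the 10 transporter genes (vertical axis from 0, with its own scale in each panel) in the EtOH_LPS, PF_LPS, EtOH and PF groups. Points are libraries (3 per group) and black lines are means. For Slc6a15 all 6 ethanol libraries sit between 4.5 and 9.66 FPKM, below the 6 pair-fed libraries at 13.7 to 26.7 FPKM, and Slc7a8 is lowest in PF_LPS, at 3.92 to 9.45 FPKM.

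Slc6a15 was lower with ethanol in both LPS states. It had 4.5, 4.54 and 5.24 FPKM in EtOH kidneys, against 16.0, 14.5 and 13.7 FPKM in PF kidneys. With LPS it had 6.81, 6.73 and 9.66 FPKM in EtOH_LPS kidneys, against 15.7, 26.7 and 19.4 FPKM in PF_LPS kidneys. Every ethanol library lay below every pair-fed library, and PF_LPS library 2 was the highest of all 12. Of all genes tested, 0.999% were lower with ethanol without overlap in both LPS states. The mean in EtOH was 0.32 times that in PF, and the mean in EtOH_LPS was 0.38 times that in PF_LPS. The difference in log2(FPKM + 1) was -1.45 ± 0.20 (SE of the limma fit) for EtOH against PF, -1.29 ± 0.20 for EtOH_LPS against PF_LPS and -1.37 ± 0.14 averaged over both. Without PF_LPS library 2 the value for EtOH_LPS against PF_LPS was -1.09. These are the values for which Slc6a15 was chosen, so they are a description, with no p-value. In bulk cortex, fewer cells of a type and less RNA per cell cannot be told apart.

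The 4 listed markers of the last, straight segment of the proximal tubule (S3) were also lower in sum with ethanol. They summed to 458 to 556 FPKM in EtOH_LPS and 560 to 940 FPKM in PF_LPS. Without LPS they summed to 418 to 526 FPKM in EtOH and 522 to 707 FPKM in PF. The ranges were apart with LPS and overlapped slightly without it. Of the 4 genes 0 passed for ethanol averaged over LPS state (limma; all 4 were below 0), and their median averaged difference was -0.37, beside -0.01 over all genes. The 2 markers of the first segment, the sodium-coupled carriers Slc5a2 and Slc5a12, had a median of 0.47 and neither passed. The part of the segments in the level of Slc6a15 was not tested. Of 4 neuron markers, 3 stayed under 0.5 FPKM in every library, and the 4 together summed to at most 0.401 FPKM in EtOH_LPS, 0.394 in PF_LPS, 1.04 in EtOH and 0.252 in PF.

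None of the other 9 members passed for ethanol. The limma fit was used with p-values adjusted over all genes by the Benjamini-Hochberg method and a threshold of 0.05, which 0.0284% of genes passed for EtOH against PF, 0.0992% for EtOH_LPS against PF_LPS and 0.319% for ethanol averaged over LPS state. At an unadjusted p under 0.05 the averaged comparison held Slc6a18 and Slc7a8 of these 9, where 9.45% of genes were under it. So did EtOH_LPS against PF_LPS, where 10.8% of genes were under it. EtOH against PF held none of these 9, where 3.69% of genes were under it. Without LPS, 3 of the 10 members had groups that did not overlap (Slc6a15, Slc6a18 and Slc7a13), where 12.6% of genes did not. With LPS it was 4 of 10 (Slc6a15, Slc6a19, Slc6a20b and Slc7a8), where 10.9% of genes did not. Both counts include Slc6a15, which was chosen by these values, so nothing is read from them. The 2 diet comparisons share no library, while each of them shares its libraries with the LPS comparisons.

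Slc6a18 had 84.5, 106 and 93.1 FPKM in EtOH kidneys, against 84.3, 75.9 and 69.9 FPKM in PF kidneys. After LPS it had 104, 127 and 106 FPKM in EtOH_LPS kidneys, against 111, 69.7 and 66.5 FPKM in PF_LPS kidneys. The ethanol libraries were the higher ones apart from PF_LPS library 1, and without LPS the lowest EtOH and the highest PF library were almost level. The averaged ethanol difference was 0.39 ± 0.15 in log2(FPKM + 1) and did not pass (adjusted p = 0.4, limma), and it was 0.09 when libraries were scaled to the proximal tubule markers. Those 18 markers themselves had a median averaged ethanol difference of 0.26, beside -0.01 over all genes. Of them 17 were above 0 and 0 passed (limma). With LPS their median was 0.37, beside -0.003 over all genes.

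Slc6a19 had 207, 117 and 190 FPKM in EtOH kidneys, against 111, 131 and 198 FPKM in PF kidneys, and these overlapped. After LPS it had 132, 109 and 97.2 FPKM in EtOH_LPS kidneys, against 78.0, 60.2 and 85.9 FPKM in PF_LPS kidneys. All EtOH_LPS libraries were above all PF_LPS libraries. The difference with LPS was 0.59 ± 0.27 (adjusted p = 0.465, limma), and averaged over LPS state it was 0.41 ± 0.19 (adjusted p = 0.545). Scaled to the proximal tubule markers, these were 0.12 with LPS and 0.11 averaged.

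Slc6a20b varied least of the members, by 1.31 times between its highest and lowest library. It had 58.3, 61.8 and 56.7 FPKM in EtOH kidneys, against 60.0, 58.4 and 63.5 FPKM in PF kidneys. After LPS it had 60.3, 55.4 and 62.9 FPKM in EtOH_LPS kidneys, against 48.6, 51.6 and 50.4 FPKM in PF_LPS kidneys. PF_LPS was the low group, below every EtOH_LPS and every PF library. The averaged ethanol difference was 0.10 ± 0.09 (adjusted p = 0.85, limma), and it was -0.20 when libraries were scaled to the proximal tubule markers.

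Slc7a9 encodes b0,+AT, the light subunit of the brush border carrier of cystine and dibasic amino acids, and Slc3a1 encodes rBAT, its heavy subunit. Mutations of either human gene cause cystinuria. Slc3a1 had 228, 269 and 267 FPKM in EtOH kidneys, against 265, 235 and 221 FPKM in PF kidneys, and 289, 370 and 266 FPKM in EtOH_LPS kidneys, against 285, 284 and 269 FPKM in PF_LPS kidneys. Both pairs of groups overlapped. Slc7a9 was lower and more variable. It averaged 44.0 ± 8.48 FPKM in EtOH kidneys and 51.5 ± 10.2 FPKM in PF kidneys (SD, n = 3 each), and 54.1 ± 17.2 FPKM in EtOH_LPS kidneys and 41.4 ± 18.4 FPKM in PF_LPS kidneys. Its lowest value of all, 20.8 FPKM, was in PF_LPS library 2. The averaged ethanol difference was 0.11 ± 0.24 for Slc7a9 (adjusted p = 0.95, limma) and -0.10 without that library, and 0.11 ± 0.13 for Slc3a1 (adjusted p = 0.894). Scaled to the proximal tubule markers, the direction flipped for both, to -0.18 for Slc7a9 and -0.19 for Slc3a1.

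Slc7a13 encodes AGT1, an aspartate, glutamate and cystine carrier that also pairs with rBAT and is known from the S3 segment. It had 353, 379 and 452 FPKM in EtOH kidneys, against 643, 485 and 460 FPKM in PF kidneys. With LPS it had 389, 325 and 442 FPKM in EtOH_LPS kidneys, against 348, 611 and 449 FPKM in PF_LPS kidneys. The groups were apart without LPS, by a narrow margin, and overlapped with it. The averaged difference was -0.34 ± 0.17 (adjusted p = 0.588, limma), and -0.64 when scaled to the proximal tubule markers. Slc7a13 and Slc6a15 were the members with a negative averaged difference as fitted, and 5 more turned negative when libraries were scaled to the proximal tubule markers.

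Slc7a7 encodes y+LAT1 and Slc7a8 encodes LAT2, the light subunits of basolateral exchangers whose heavy subunit is Slc3a2. Slc7a8 had 27.5, 19.9 and 27.8 FPKM in EtOH kidneys, against 13.0, 13.9 and 21.6 FPKM in PF kidneys. With LPS it had 18.0, 12.2 and 12.6 FPKM in EtOH_LPS kidneys, against 9.45, 6.29 and 3.92 FPKM in PF_LPS kidneys. The ethanol groups were higher, with overlap through 1 PF library without LPS and no overlap with LPS. The difference was 0.62 ± 0.29 for EtOH against PF (adjusted p = 1, limma), 1.06 ± 0.29 for EtOH_LPS against PF_LPS (adjusted p = 0.181) and 0.84 ± 0.20 averaged (adjusted p = 0.147). Scaled to the proximal tubule markers, the difference with LPS was 0.64. Slc7a8 thus had the second largest averaged ethanol difference of the set and did not pass. Slc7a7 averaged 67.6 ± 8.82 FPKM in EtOH kidneys and 71.8 ± 12.1 FPKM in PF kidneys, and 57.1 ± 8.74 FPKM in EtOH_LPS kidneys and 48.7 ± 19.8 FPKM in PF_LPS kidneys (SD, n = 3 each). Its averaged difference was 0.12 ± 0.21 (adjusted p = 0.935), -0.08 without PF_LPS library 2 and -0.18 when scaled to the proximal tubule markers.

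Slc1a1 encodes EAAC1, the brush border carrier of glutamate and aspartate. It had 54.6, 54.8 and 64.7 FPKM in EtOH kidneys, against 73.5, 64.7 and 57.8 FPKM in PF kidneys. With LPS it had 86.9, 78.7 and 70.2 FPKM in EtOH_LPS kidneys, against 67.0, 93.3 and 52.6 FPKM in PF_LPS kidneys. Both pairs overlapped, and the averaged ethanol difference was 0.01 ± 0.15 (adjusted p = 0.998, limma), with -0.29 when scaled to the proximal tubule markers.

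**Figure D2:**
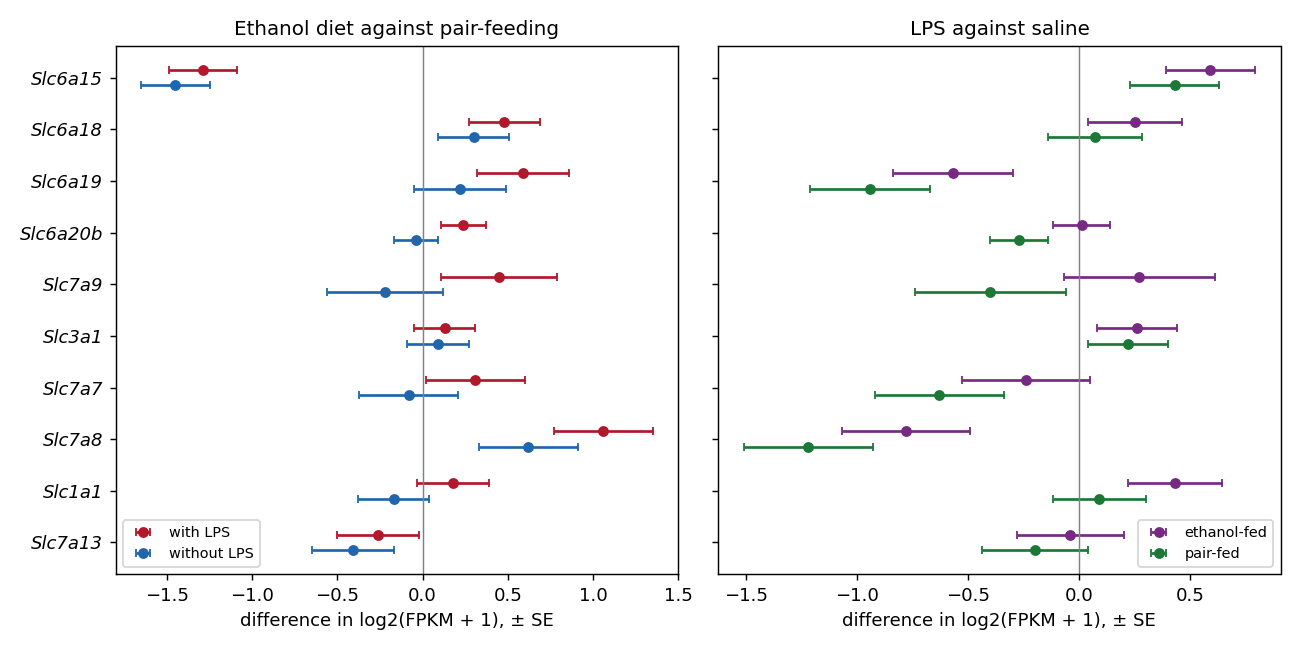
Difference in log2(FPKM + 1) with its standard error for each transporter gene. The left panel sets the ethanol diet against pair-feeding, with LPS (red) and without LPS (blue), and the right panel sets LPS against saline in ethanol-fed (purple) and pair-fed (green) kidneys. Slc6a15 lies at -1.29 and -1.45 on the left, and Slc7a8 and Slc6a19 lie furthest to the left on the right, at -1.22 and -0.94 in pair-fed kidneys.

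After LPS, 3 of the 10 members passed when the effect was averaged over the diets: Slc7a8 and Slc6a19 fell and Slc6a15 rose (limma, adjusted over all genes). Over all genes 29.6% passed, 16.4% upwards and 13.2% downwards, so the share of members called was near the background. The median difference was -0.09 over the members and -0.002 over all genes. FPKM summed to 1278219 to 1437382 per library in EtOH_LPS, 1292776 to 1935824 in PF_LPS, 1005219 to 1150809 in EtOH and 1067637 to 1352739 in PF. Scaling each library to an equal total moved the median of all genes by -0.344, while quantile normalization moved it by -0.129. Slc7a8 and Slc6a19 passed as lower under both scalings, while Slc6a15 did not pass under either.

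Slc7a8 was lower with LPS in both diets and passed in pair-fed kidneys and on average. Its mean in PF_LPS was 0.41 times that in PF, and its mean in EtOH_LPS was 0.57 times that in EtOH, with no overlap in either diet. The difference was -1.0 ± 0.20 averaged over diets (adjusted p = 0.00294, limma), -1.22 ± 0.29 in pair-fed kidneys (adjusted p = 0.0119) and -0.78 ± 0.29 in ethanol-fed kidneys, which did not pass alone (adjusted p = 0.0928). Over the alternative settings the averaged value lay between -1.37 and -0.76. Without PF library 3, the pair-fed value was -1.0 (adjusted p = 0.0588).

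Slc6a19 fell with LPS as well. Its mean in PF_LPS was 0.51 times that in PF, without overlap, and its mean in EtOH_LPS was 0.66 times that in EtOH, with overlap. The difference was -0.75 ± 0.19 averaged over diets (adjusted p = 0.0115, limma), -0.94 ± 0.27 in pair-fed kidneys (adjusted p = 0.0337) and -0.57 ± 0.27 in ethanol-fed kidneys (adjusted p = 0.2). Leaving out PF_LPS library 1 or 2 or PF library 2 or 3 ended the pair-fed call, with adjusted p up to 0.147, as did testing without a filter (0.0961) and scaling to the proximal tubule markers (0.129). The averaged value lay between -1.17 and -0.59 over the alternative settings and passed in each. Hnf4a, a transcription factor of proximal tubule identity, was lower in the LPS groups too, at 72.0 ± 21.1 FPKM in EtOH_LPS, 65.6 ± 16.8 in PF_LPS, 118 ± 13.9 in EtOH and 125 ± 13.2 in PF (SD, n = 3 each). Hnf4a was the only one of the 18 proximal tubule markers that passed on average (-0.84 ± 0.17, adjusted p = 0.00303), and the list's median was -0.13. The part of Hnf4a in the levels of Slc6a19 and Slc7a8 was not tested.

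Slc6a15 rose on average with LPS. Its mean in EtOH_LPS was 1.63 times that in EtOH, without overlap, and its mean in PF_LPS was 1.4 times that in PF, with overlap. The averaged difference was 0.51 ± 0.14 (adjusted p = 0.0192, limma). Within diets it was 0.59 ± 0.20 in ethanol-fed kidneys and 0.43 ± 0.20 in pair-fed kidneys. Slc6a15 was chosen by values that include its EtOH and PF levels, the baselines within each diet. These 2 values are therefore a description, with no p-value. Without a filter on low values the adjusted p of the averaged difference was 0.0526 (limma). With quantile normalization the averaged difference was 0.38 (adjusted p = 0.0583), and with equal totals it was 0.13 (adjusted p = 0.442) and -0.05 in pair-fed kidneys. Without PF_LPS library 2 it was 0.41 (adjusted p = 0.0321), and 0.23 in pair-fed kidneys.

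The other 7 members did not pass on average. Their differences were 0.16 ± 0.15 for Slc6a18, -0.13 ± 0.09 for Slc6a20b, -0.07 ± 0.24 for Slc7a9, 0.24 ± 0.13 for Slc3a1, -0.44 ± 0.21 for Slc7a7, 0.26 ± 0.15 for Slc1a1 and -0.12 ± 0.17 for Slc7a13, with adjusted p between 0.138 and 0.861 (limma). With equal totals or quantile normalization the values of Slc6a18, Slc3a1 and Slc1a1 turned negative and those of Slc6a20b, Slc7a7 and Slc7a13 became more negative, and when scaled to the proximal tubule markers Slc6a20b, Slc7a9 and Slc7a13 were at 0.03, 0.09 and 0.04. In PF_LPS library 2 alone, Slc7a9 and Slc7a7 lay 0.84 and 0.77 below their group means on the log2 scale, and Slc1a1, Slc7a13 and Slc6a15 lay 0.43, 0.42 and 0.39 above theirs. The GC content of these transcripts was 50.9% and 52.4% for the low ones and 48.0%, 41.2% and 42.3% for the high ones. The other 5 members did not follow the order of GC content: Slc7a8, with the highest GC content of the 10 (52.8%), lay at 0.02 and Slc6a20b (43.0%) at 0.04, with Slc3a1 (48.4%) at 0.03, Slc6a18 (49.2%) at -0.20 and Slc6a19 (48.8%) at -0.29. Without this library the averaged LPS difference was 0.14 for Slc7a9, -0.24 for Slc7a7, 0.15 for Slc1a1 and -0.22 for Slc7a13, and none of these passed (adjusted p between 0.226 and 0.611, limma). With the GC trend of each library removed, the averaged LPS difference was -0.06 for Slc7a9 and -0.39 for Slc7a7, close to the values as fitted.

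In pair-fed kidneys 2 members, Slc7a8 and Slc6a19, passed for PF_LPS against PF, where 18.2% of genes passed. In ethanol-fed kidneys 0 of 10 passed for EtOH_LPS against EtOH (limma), where 17.1% of genes passed, and 2 members, Slc6a15 and Slc7a8, had an unadjusted p under 0.05, as did 28.3% of genes. Groups did not overlap for 4 of 10 members in pair-fed kidneys (34.2% of genes) and 3 of 10 in ethanol-fed kidneys (33.6% of genes). The LPS effect was not shown to differ between diets: 0 of 10 members passed for the interaction (limma), where 0.0284% of genes passed, 0 had an unadjusted p under 0.05 (4.37% of genes), and adjusted p lay between 0.988 and 0.995. The interaction was 0.16 ± 0.29 for Slc6a15, 0.37 ± 0.39 for Slc6a19 and 0.44 ± 0.41 for Slc7a8. For Slc6a15, the interaction and the values within each diet hold EtOH and PF levels by which it was chosen. Nothing is read from these.

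Slc6a15 was also set against its 3 SLC6 relatives within each library, a measure in which the scale of a library cancels apart from the pseudocount. The LPS difference of a ratio is that of Slc6a15 minus that of the relative, both given above. Its p-value is therefore not separate evidence from theirs. The log2 ratio of Slc6a15 to Slc6a19 was -4.09, -3.83 and -3.20 in EtOH_LPS, -2.24, -1.15 and -2.09 in PF_LPS, -5.24, -4.42 and -4.93 in EtOH and -2.72, -3.09 and -3.76 in PF. It was higher with LPS by 1.26 over both diets (exact permutation test within diets, two-sided, 400 arrangements, p = 0.005, the smallest these allow, and 0.0075 adjusted over the 3 relatives). The ratio to Slc6a20b averaged -2.81 ± 0.20 in EtOH_LPS, -1.28 ± 0.33 in PF_LPS, -3.38 ± 0.15 in EtOH and -1.97 ± 0.15 in PF (SD, n = 3 each). It was higher with LPS by 0.63 (exact permutation p = 0.005, adjusted 0.0075). The ratio to Slc6a18 averaged -3.71 ± 0.36 in EtOH_LPS, -1.94 ± 0.72 in PF_LPS, -4.05 ± 0.19 in EtOH and -2.30 ± 0.03 in PF (SD, n = 3 each), and the LPS difference of 0.35 did not pass (exact permutation p = 0.155). Without PF_LPS library 1 that difference was 0.55 (adjusted p = 0.015, exact permutation). Between diets, as a description, the log2 ratio in EtOH minus that in PF was -1.75 for Slc6a18, -1.67 for Slc6a19 and -1.41 for Slc6a20b as the partner. In EtOH_LPS minus PF_LPS it was -1.77 for Slc6a18, -1.88 for Slc6a19 and -1.53 for Slc6a20b.

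**Figure D3:**
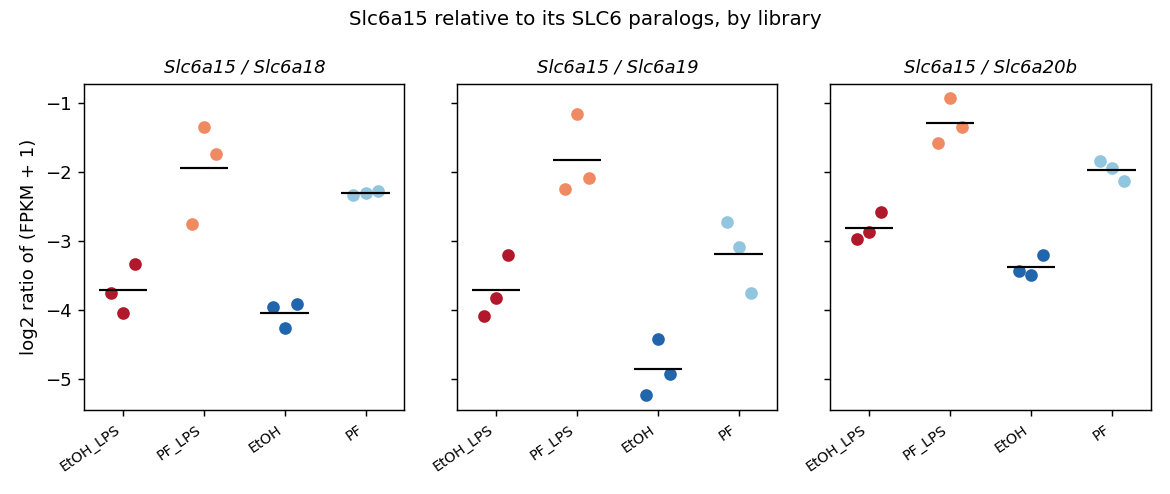
Log2 ratio of Slc6a15 to Slc6a18, Slc6a19 and Slc6a20b, each as FPKM + 1, in the EtOH_LPS, PF_LPS, EtOH and PF groups. Points are libraries and black lines are means of 3. In every panel both ethanol groups lie below their pair-fed counterparts, and for Slc6a19 and Slc6a20b the LPS groups lie above the saline groups of the same diet.

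Of the further relatives, Slc6a20a averaged 9.01 ± 1.9 FPKM in EtOH_LPS, 7.31 ± 0.875 in PF_LPS, 4.59 ± 1.29 in EtOH and 4.56 ± 0.391 in PF (SD, n = 3 each). It rose with LPS by 0.71 ± 0.14 (adjusted p = 0.00263, limma), and passed in 9 of 10 alternative settings, with 0.36 under equal totals, where it did not. Its near copy Slc6a20b did not pass. Slc6a17, the closest in sequence to Slc6a15 at 67.1% identity, averaged 0.764 FPKM in EtOH_LPS, 0.654 in PF_LPS, 1.45 in EtOH and 0.913 in PF. Slc6a16 stayed at or under 0.0911 FPKM. None of the 5 relatives tested passed for ethanol, and their median averaged difference was 0.25.

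For the 2 subunits of the cystine carrier, the log2 ratio of Slc7a9 to Slc3a1 averaged -2.52 ± 0.64 in EtOH_LPS, -2.84 ± 0.77 in PF_LPS, -2.52 ± 0.37 in EtOH and -2.21 ± 0.42 in PF (SD, n = 3 each). The LPS difference was -0.31 (exact permutation within diets, two-sided, p = 0.385), and -0.09 without PF_LPS library 2. The heavy subunit shared by Slc7a7 and Slc7a8, Slc3a2, averaged 222 ± 55.7 FPKM in EtOH_LPS, 176 ± 38.3 in PF_LPS, 167 ± 60.1 in EtOH and 136 ± 27.8 in PF, and its LPS difference of 0.41 ± 0.22 did not pass (adjusted p = 0.186, limma).

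Across the 12 libraries the members followed each other unevenly. The libraries share depth and GC differences, and the values are a description. Slc6a19 and Slc7a8 had a Pearson r of 0.87, and 0.54 after group means were removed. Slc7a9 and Slc7a7 had 0.80, and 0.90 after removal. Slc6a15 had 0.64 with Slc7a13 (0.91 after removal) and -0.78 with Slc7a8 (-0.35 after removal). The protein-coding genes with the most similar pattern to Slc6a15 were Prok1 (r = 0.951), Agps (0.938), Cyp4a12b (0.935), Cmtm6 (0.925) and Lpl (0.921), each over 12 libraries. Agps, an enzyme of ether lipid synthesis, averaged 142 FPKM in EtOH_LPS, 296 in PF_LPS, 129 in EtOH and 266 in PF. Lpl, lipoprotein lipase, averaged 101 FPKM in EtOH_LPS, 273 in PF_LPS, 80.8 in EtOH and 283 in PF.

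Among 44 other amino acid transporter genes, 27 were tested, and 7 rose and 5 fell with LPS on average, with a median of -0.11, where 29.6% of all genes passed and their median was -0.002. In pair-fed kidneys 5 rose and 5 fell, where 18.2% of all genes passed, and in ethanol-fed kidneys 4 rose and 3 fell, where 17.1% passed. None passed in any ethanol comparison (limma). Slc43a2, a carrier of branched-chain and aromatic amino acids, fell by 1.93 ± 0.23 on the log2 scale and averaged 16.3 ± 6.88 FPKM in EtOH_LPS, 6.68 ± 3.56 in PF_LPS, 51.3 ± 6.95 in EtOH and 32.3 ± 4.71 in PF. Slc38a2, a sodium-coupled carrier of small neutral amino acids, rose by 1.42 ± 0.18 and averaged 40.4 ± 14.0 FPKM in EtOH_LPS, 36.9 ± 5.31 in PF_LPS, 16.3 ± 2.87 in EtOH and 11.1 ± 0.208 in PF. Slc1a4, a carrier of alanine, serine and cysteine, rose by 1.23 ± 0.13, and Slc36a1, a proton-coupled carrier, fell by 0.99 ± 0.18. These 4 kept their direction and passed in all 10 alternative settings (adjusted p between 1.41e-05 and 0.00112 as fitted, limma).

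**Figure D4:**
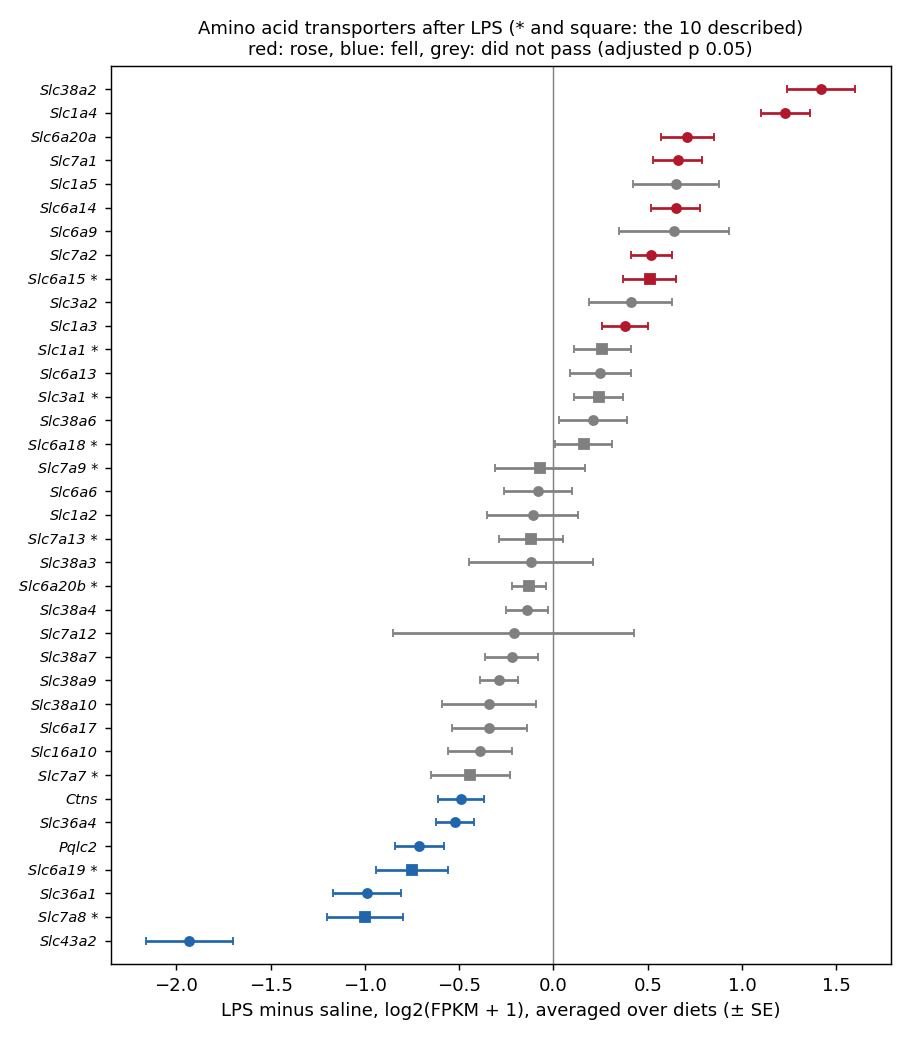
Averaged LPS difference in log2(FPKM + 1) with its standard error for the 10 transporters described (squares, marked with an asterisk) and 27 other amino acid transporter genes (circles). Red marks genes that rose, blue genes that fell and grey genes that did not pass at an adjusted p of 0.05. Slc38a2 at 1.42 and Slc43a2 at -1.93 are the ends of the range, and Slc7a8 at -1.0 and Slc6a19 at -0.75 lie near the lower end.

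Of the listed brush border partners, Tmem27 (collectrin), which serves B0AT1 in kidney, averaged 2420 ± 400 FPKM in EtOH_LPS, 2180 ± 604 in PF_LPS, 1940 ± 410 in EtOH and 1550 ± 147 in PF and did not pass for LPS averaged over diet (0.39 ± 0.18, adjusted p = 0.133, limma).

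Genes of the ATF4 response, which cells switch on when amino acids are short, were mostly higher with LPS: 13 of 22 tested rose and 0 fell (limma), with a median of 0.62, where 16.4% of all genes rose and 13.2% fell. Atf3 rose by 4.33 ± 0.27, Cebpb by 3.79 ± 0.16, Nupr1 by 2.12 ± 0.27 and Ddit4 by 2.07 ± 0.17. Asns, asparagine synthetase, averaged 2.42 ± 0.714 FPKM in EtOH_LPS, 3.96 ± 1.08 in PF_LPS, 1.09 ± 0.21 in EtOH and 1.70 ± 0.788 in PF. None of the 22 passed for ethanol, where the median was 0.01. Several of these genes also answer inflammatory signals, and the listed neutrophil markers were higher in sum with LPS. These 5 markers summed to 166 to 254 FPKM in EtOH_LPS, 181 to 417 in PF_LPS, 3.1 to 5.45 in EtOH and 3.23 to 5.44 in PF. In the LPS groups most of the sum was S100a8 and S100a9. The part of neutrophils in the ATF4 list was not tested. Among the neutrophil markers S100a8 rose by 5.23 ± 0.24, S100a9 by 5.21 ± 0.23 and Retnlg by 2.29 ± 0.19. Csf3r rose by 0.65 ± 0.16 on average and passed in neither diet alone (adjusted p = 0.0664 in pair-fed and 0.0766 in ethanol-fed kidneys, limma). Ly6g, at most 0.84 FPKM, was not tested. The 4 tubular injury markers summed to 205 to 378 FPKM in EtOH_LPS, 195 to 358 in PF_LPS, 2.82 to 4.78 in EtOH and 3.8 to 5.79 in PF, and all 4 passed as higher on average. Lcn2 rose by 6.87 ± 0.32, Vcam1 by 4.53 ± 0.14 and Havcr1 by 3.74 ± 0.42. Krt20 had 1.95 ± 0.57 (adjusted p = 0.0295, limma), passed in 7 of 10 alternative settings and passed in neither diet alone (adjusted p = 0.0786 in ethanol-fed and 0.241 in pair-fed kidneys).

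Markers of other kidney cells moved with LPS as well. Of 6 endothelial markers 4 fell and 1 rose on average, where 13.2% of all genes fell and 16.4% rose. The list had a median sum of 56.4 FPKM in EtOH_LPS, 42.5 in PF_LPS, 106 in EtOH and 95.5 in PF. The sums lay between 42.3 and 63.3 FPKM in the LPS libraries and between 93.6 and 123 FPKM in the saline libraries. Tek fell by 2.52 on the log2 scale, Kdr by 1.98, Emcn by 1.78 and Pecam1 by 1.21. Cdh5 went the other way and rose by 1.18 ± 0.16 (adjusted p = 0.000192, limma), and Flt1, at 0.11, did not pass. Of the other lists, Podxl of podocytes fell by 0.69, Kcnj1 of the thick ascending limb by 0.96, Aqp3 of principal cells by 0.84 and Slc4a1 of intercalated cells by 1.36, while the stromal Dcn rose by 1.05. Dcn went against its list, whose median was -0.24. The other stromal markers did not pass, with Col1a1 at -0.47, Pdgfrb at -0.52 and Acta2 at -0.01. The part of these cells in the levels of the 10 transporters was not tested.

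Some members share genomic positions with another gene on the opposite strand, and the strand setting of the authors' counting is not given in the sources used here. Slc6a20b overlaps Sacm1l (52.2 to 151 FPKM), Slc3a1 overlaps Prepl (44.7 to 67.4 FPKM), Slc7a7 overlaps Oxa1l (3.89 to 11.7 FPKM) and Slc1a1 overlaps 4430402I18Rik (26.1 to 51.8 FPKM) and Gm5822. Slc6a19 overlaps Slc6a19os, which stayed between 0.0947 and 1.17 FPKM. Slc6a15, Slc6a18, Slc7a8, Slc7a9 and Slc7a13 overlap no annotated gene.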

How the data were processed

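The authors deposited 1 table of FPKM values for 47719 Ensembl genes in 12 libraries. The submitters' processing notes name mm10 and Cuffnorm, Cuffdiff 2.1.1, Cufflinks 2.2.1, TopHat2 2.0.4 and FastQC 0.10.1. Annotation and strand setting: not given in the sources used here. FPKM are not counts, so no count model was run, and the depth in fragments is unknown. Relative depth was read from the modal step between low values (10.2 to 14.1% of low genes). Identifiers were matched to GENCODE M21 symbols (47305 matched, 414 not), and sequences come from GENCODE and RefSeq.

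Values were analysed as log2(FPKM + 1), which understates changes of low genes, after requiring 1 FPKM in 3 libraries. The limma fit (version 3.58.1, R 4.3.3) had a mean for each group, used every library and took a trended, robust prior. All p-values are two-sided and adjusted over the 14109 genes. Ratios were tested by exact permutation within diets. A permutation of 3 against 3 libraries cannot go below 0.1, so none is given for single genes. The fits were tested on simulated data. Alternatives were pseudocounts of 0.1 and 5, no filter, 4 other scalings, a replicate block, a plain prior, leaving out each library and, chosen after seeing the data, removal of a GC trend.

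The members and gene lists were chosen with earlier results of these data known. All members are named. Of each other list, up to 4 genes past the threshold for LPS averaged over diet were named by size, if at 5 FPKM or more in a group. Genes outside that rule (Slc3a2, Tmem27, Asns, Slc6a16, Slc6a17, Lrp2, Slc34a1, Slc5a2, Slc5a12, Csf3r and Ly6g) were named after their values were seen. The same holds for Cdh5, Flt1, Col1a1, Pdgfrb and Acta2. One result on the list of brush border partners is not reported here.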

Additional observations from a re-analysis of the deposited data

How the results depend on the processing

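The number of members past the threshold for EtOH against PF was 1 as fitted. It was 0 with a pseudocount of 5 FPKM, no filter, median-ratio factors, scaling to proximal tubule markers, the replicate block or a plain prior. It was 0 to 1 when 1 library was left out. For EtOH_LPS against PF_LPS it was 1 as fitted. It was 0 with a pseudocount of 0.1 FPKM, no filter, equal totals, quantile normalization, the replicate block or a plain prior, and 0 to 1 with 1 library left out. In each case the member lost was Slc6a15. It was chosen by these values, so nothing is read from the counts. Its difference stayed between -1.61 and -1.02 without LPS and between -1.74 and -0.99 with LPS over these settings. For ethanol averaged over LPS state the count was 1 in all settings. That member was again Slc6a15, so nothing is read from this count either. For PF_LPS against PF it was 2 as reported and 1 without a filter or scaled to proximal tubule markers. It was 4 with equal totals or quantile normalization, and 0 to 2 with 1 library left out. Of all 14109 genes, 1589 were higher and 972 lower as reported in this comparison. With equal totals these were 858 and 2565, with quantile normalization 1388 and 1168, and scaled to proximal tubule markers 2242 and 434. Without a filter they were 1309 and 700 of 36616 genes. For EtOH_LPS against EtOH the number of members was 0 as reported and 2 with quantile normalization (Slc6a19 at -0.99, Slc7a8 at -1.0). It was 0 to 1 with 1 library left out, the 1 being Slc6a15 at 0.59 without PF_LPS library 1 or 2. Slc6a15 was chosen by values that include its EtOH level, so nothing is read from that call. Of all 14109 genes, 1504 were higher and 902 lower as reported, and 1279 and 971 with quantile normalization. For LPS averaged over diet the number of members was 3 as reported and with any library left out. It was 2 without a filter, where Slc6a15 did not pass. It was 5 with equal totals or quantile normalization, where Slc6a20b (-0.54 and -0.47), Slc7a7 (-0.85 and -0.77) and Slc7a13 (-0.54 and -0.55) passed and Slc6a15 did not. Without a filter, 2139 of 36616 genes were higher and 1848 lower in this averaged comparison, and the all-gene counts with equal totals and quantile normalization follow below. The cause of these changes was not tested.

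Directions turned in the following cases, none past the threshold. Scaled to proximal tubule markers, the averaged ethanol difference was -0.20 for Slc6a20b, -0.18 for Slc7a9, -0.19 for Slc3a1, -0.18 for Slc7a7 and -0.29 for Slc1a1. Under that scaling the averaged LPS difference was 0.03 for Slc6a20b, 0.09 for Slc7a9 and 0.04 for Slc7a13, and the interaction was -0.19 for Slc6a15. The averaged LPS difference was -0.26 with equal totals and -0.21 with quantile normalization for Slc6a18, -0.18 and -0.18 for Slc3a1 and -0.15 and -0.10 for Slc1a1. Slc6a15 was at -0.05 for PF_LPS against PF with equal totals. With 1 library left out, the averaged ethanol difference ranged from -0.10 to 0.25 for Slc7a9, -0.08 to 0.24 for Slc7a7 and -0.09 to 0.11 for Slc1a1, the averaged LPS difference of Slc7a9 ranged from -0.21 to 0.14, and the interaction for Slc6a15 ranged from -0.01 to 0.36. The LPS difference in the ratio of Slc6a15 to Slc6a18 ranged from 0.20 to 0.55.

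Over all genes, the averaged LPS comparison had 2319 higher and 1856 lower genes as deposited, 1267 higher and 4512 lower with equal totals, 1866 and 2372 with quantile normalization, and 2547 and 1097 scaled to proximal tubule markers. Equal totals shifted the median of all genes by -0.399 for PF_LPS against PF and by 0.194 for EtOH_LPS against PF_LPS. Replicate numbers showed no clear pairing of the libraries. After group means were removed, same-numbered libraries of different groups had correlations between -0.206 and 0.279, and 5 of 18 were over 0.1. Differently numbered libraries had correlations between -0.35 and 0.391. With the replicate block, Slc6a15 stood at -1.45 for EtOH against PF. Depth in fragments is unknown, so the error of low values such as Slc7a8 in PF_LPS is known only from the spread of 3 libraries.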
